A study of Mus musculus with 14 samples.

Results

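The 9 genes described here are the mouse genes for MHC class II antigen presentation: H2-Aa, H2-Ab1, H2-Eb1, Cd74, H2-DMa, H2-DMb1, H2-Oa, H2-Ob and Ciita. Their probe sets were found by gene symbol in the array platform's annotation, and the gene list was drawn up with earlier results of these data known. Of the 9, 8 had at least 1 probe set that names that gene alone, out of 18193 genes with such a probe set, and each was read from the probe set with the highest mean signal over all arrays. H2-DMb1 had none, because both of its probe sets also name the neighbouring gene H2-DMb2. It was followed through the brighter of these shared probe sets, whose signal cannot be divided between both genes. In all, 19 probe sets list a member, 16 of them under 1 gene name and 3 under 2.

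The RNA came from subcutaneous white adipose tissue (scWAT) of male C57BL/6 mice aged 12 weeks. An exercised group of 7 samples came from mice kept in cages with running wheels for 11 days, and a control group of 7 samples came from sedentary mice of the same strain, sex, age and duration. Each sample was hybridised to 1 Affymetrix array, and each value is a MAS5 signal, an array intensity scaled to the same trimmed mean of 1500 on every array. The study asked how the fat of running mice differs from that of sedentary mice. The labels do not say whether the samples of a group are separate mice, so each p-value reflects only how these samples vary, which may in part be technical.

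MHC class II molecules are surface proteins that show peptides from engulfed material to CD4 T cells. They are paired alpha and beta chains, made in quantity by B cells, dendritic cells and macrophages, all of which are found in fat depots or in the lymph nodes embedded in them. The invariant chain Cd74 holds the groove of a new molecule closed, H2-DM exchanges the remaining fragment for a peptide, and H2-O holds back H2-DM. The transactivator Ciita switches class II genes on by joining proteins bound at a shared promoter module.

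The shared module is shown because Ciita is known to act on class II genes through such a sequence. Of the 9 members, 6 have a promoter window in the RefSeq table of build GRCm38.p6, running from 250 bases before to 50 bases after the gene's start. Capitals mark 2 motifs found by search on the gene's own strand: CNNGNAAC, which fits the core of the X box, and TGATTGG, the inverted CCAAT or Y box that nuclear factor Y binds. The letters were chosen after looking at these windows, and the motifs do not overlap. Each stretch is written 5′ to 3′ on the gene's own strand.
H2-Oa, chr17:34092292-34092348, plus strand: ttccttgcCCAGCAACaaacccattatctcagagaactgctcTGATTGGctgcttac
H2-DMb1, chr17:34153086-34153142, plus strand: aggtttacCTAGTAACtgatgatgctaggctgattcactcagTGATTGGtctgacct
H2-Ob, chr17:34238807-34238860, plus strand: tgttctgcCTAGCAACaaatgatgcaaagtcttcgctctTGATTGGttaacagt
H2-Aa, chr17:34287859-34287915, minus strand: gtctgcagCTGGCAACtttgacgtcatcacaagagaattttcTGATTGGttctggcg
H2-Eb1, chr17:34305765-34305820, plus strand: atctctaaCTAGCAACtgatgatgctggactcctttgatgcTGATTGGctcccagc

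The pair, with at most 40 bases between the motifs, was present in 5 of the 6 members with a window. Over all 32851 promoter windows, counted on either strand, 0.289% held the pair and 7.82% held TGATTGG. Because the letters were chosen from the members' own windows, their count was favoured in advance and is no test of enrichment. In the 5 stretches the gap between the motifs ran from 23 to 26 bases, and TGATTGG began 45 to 63 bases before the start. The H2-DMa windows held no such pair, and H2-Ab1, Cd74 and Ciita had no entry. Of the genes followed here, 7 lie together on chromosome 17, in the order H2-Oa, H2-DMa, H2-DMb1, H2-Ob, H2-Ab1, H2-Aa and H2-Eb1, with Ciita on chromosome 16 and Cd74 on chromosome 18. A matching stretch is a description of sequence and not a measurement of binding.

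The adipocyte hormone gene Adipoq was bright in both groups, at 57626.7 ± 7115.43 in sedentary and 59745.2 ± 5240.55 in exercised samples (SD, n = 7 each), as the tissue label requires. The signal of a B cell gene was uneven between the samples. Cd79a, a chain of the B cell receptor complex, lay between 335.2 and 778.9 on 3 arrays (sedentary 7, exercised 5 and exercised 7) and between 3590.8 and 19139.7 on the other 11. Summed signals of 12 skeletal muscle markers also varied widely, from 4528.9 to 261970 in sedentary and from 5659.3 to 648696 in exercised samples. In whole tissue, fewer cells of a type and less RNA per cell cannot be told apart.

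None of the 8 members with a probe set of their own passed the test between exercised and sedentary samples, and all 8 had a lower mean log2 level after running. Differences are on the scale of log2(signal + 46.7) and were tested with limma across 12945 genes, with Benjamini-Hochberg adjustment at 0.05. The count was 0 of 8, beside 5.53% of all genes tested, with 1.53% called lower in exercised samples. At an unadjusted p under 0.05, 3 of 8 members were lower, beside 10.5% of all genes. The 8 negative differences stand beside 55.0% of all genes, and the median difference was −0.44 for the members and −0.028 for all genes. In no member were the groups free of overlap, against 2.68% of all genes.

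**Figure D1:**
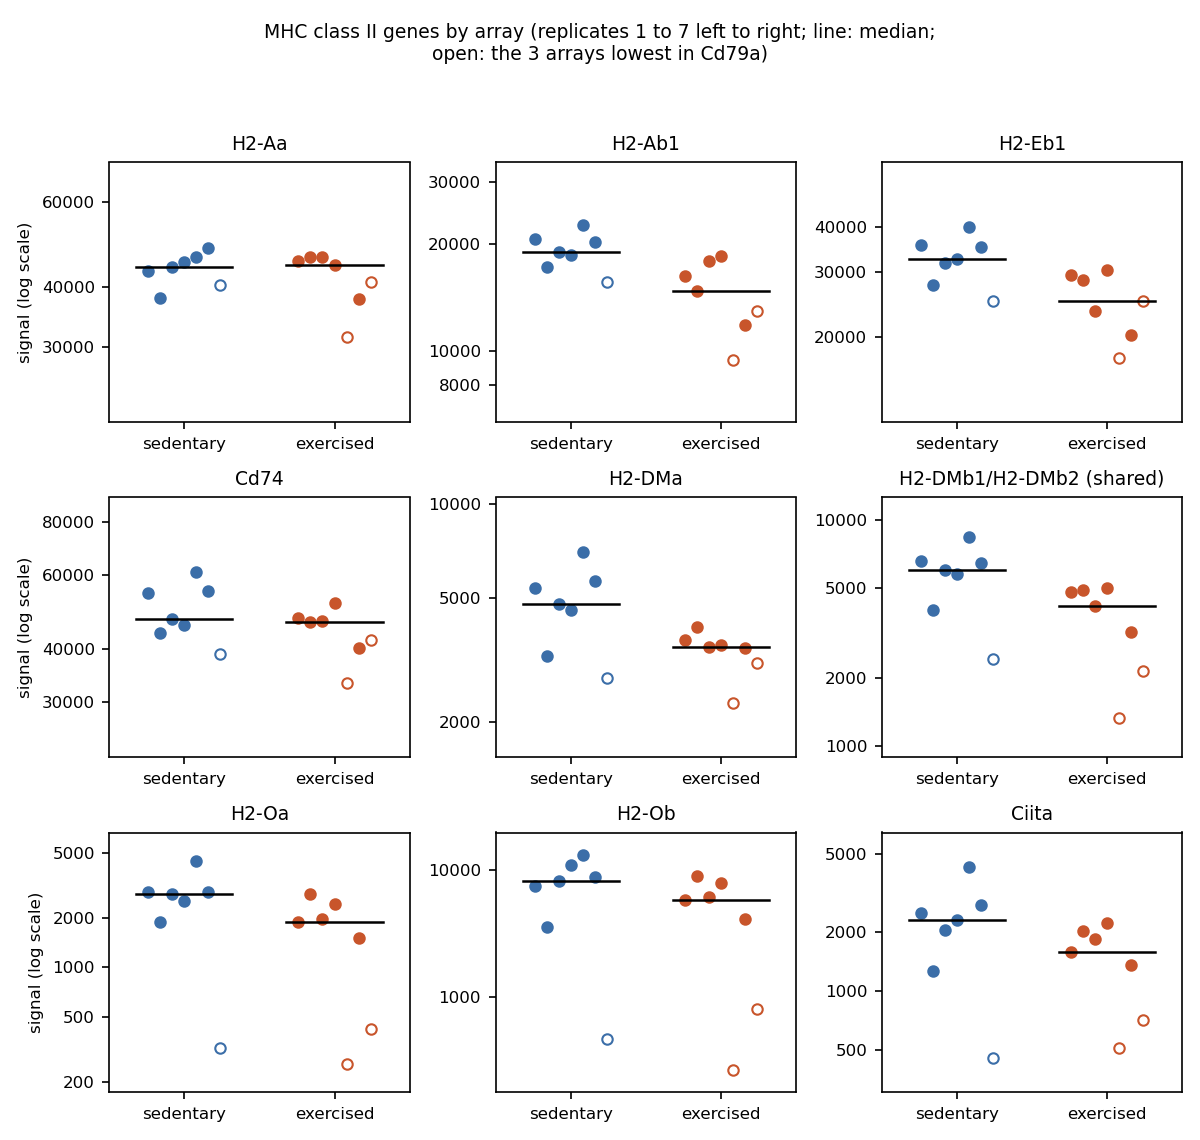
MAS5 signal of each MHC class II gene on a log scale for the 7 sedentary (blue) and 7 exercised (orange) arrays, with replicates 1 to 7 from left to right and the median as a line; open points are the 3 arrays lowest in Cd79a. The open points sit at the bottom for H2-Oa, H2-Ob and Ciita, and the groups overlap in every panel.

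The classical chains form the peptide groove itself. H2-Aa, the alpha chain of the I-A molecule, had signals of 37909.3 to 48169.8 with a median of 43906.6 in sedentary samples, and of 31469.5 to 46169.5 with a median of 44431 in exercised samples. The groups overlapped almost fully, and only 3 exercised samples lay under the sedentary median. The difference was −0.068 (SE 0.089, 95% interval −0.26 to 0.12, adjusted p = 0.684).

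H2-Ab1, the partner beta chain of I-A, had signals of 15603.1 to 22699.3 with a median of 18962.4 in sedentary samples, and of 9401.3 to 18548 with a median of 14700.1 in exercised samples. All 7 exercised samples lay under the sedentary median and 4 of them lay under every sedentary sample, so the groups overlapped in part. The sedentary level was 1.34-fold the exercised one, a difference of −0.43 (SE 0.14, 95% interval −0.72 to −0.13, adjusted p = 0.0870). This is the smallest adjusted p among the members and still misses the threshold.

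H2-Eb1, the beta chain of the I-E molecule, showed much the same picture. Its signals ran from 25112.8 to 39884.7 with a median of 32661.1 in sedentary samples, and from 17511.7 to 30431.4 with a median of 25013.1 in exercised samples. Again all 7 exercised samples lay under the sedentary median and 4 lay under every sedentary sample. The difference was −0.39 (SE 0.13, 95% interval −0.67 to −0.11, adjusted p = 0.0967). H2-Ea, which encodes the alpha chain that pairs with H2-Eb1 and is not made in C57BL/6 mice, was under the filter on low signal in all 3 of its probe sets, at 25.2 to 269.5.

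Cd74, the invariant chain, had signals of 38975.4 to 61097.3 with a median of 47301.9 in sedentary samples, and of 33257 to 51593.3 with a median of 46405.1 in exercised samples. The groups overlapped over most of their range, with 5 exercised samples under the sedentary median. The difference was −0.17 (SE 0.11, 95% interval −0.40 to 0.067, adjusted p = 0.394).

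H2-DMa, the alpha chain of the peptide exchange factor, had signals of 2755.8 to 6994.4 with a median of 4756.6 in sedentary samples, and of 2301.5 to 4012.8 with a median of 3460.3 in exercised samples. Of the sedentary samples, 5 lay above every exercised one, and sedentary 2 and 7 lay among them. The difference was −0.46 (SE 0.18, 95% interval −0.84 to −0.069, adjusted p = 0.161).

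The probe set shared by H2-DMb1 and H2-DMb2, the beta chains of H2-DM, had signals of 2428.4 to 8398.7 with a median of 6042 in sedentary samples, and of 1332.1 to 4995.5 with a median of 4168.1 in exercised samples. The groups overlapped, with sedentary 7 among the low arrays. The difference was −0.67 (SE 0.31, adjusted p = 0.248 over all probe sets above the filter).

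H2-Oa and H2-Ob, which together make the H2-DM inhibitor and are known mainly from B cells, varied most between arrays among the members, 17.4-fold and 48.3-fold. H2-Oa had signals of 322 to 4470.8 with a median of 2830.6 in sedentary samples, and of 257.3 to 2810 with a median of 1905.6 in exercised samples. H2-Ob had signals of 469.3 to 13045.1 with a median of 8189.4 in sedentary samples, and of 270.3 to 8967.5 with a median of 5844.5 in exercised samples. For both genes the 3 lowest arrays were sedentary 7, exercised 5 and exercised 7, and the groups overlapped widely. The differences were −0.73 for H2-Oa (SE 0.58, adjusted p = 0.487) and −0.80 for H2-Ob (SE 0.82, adjusted p = 0.599), with 95% intervals that span 0. With the ratio of 3′ to 5′ Gapdh control signal as a covariate these were −0.25 and −0.13.

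Ciita, the transactivator of the set, had signals of 454.4 to 4287.9 with a median of 2305.7 in sedentary samples, and of 509.8 to 2206.7 with a median of 1586.3 in exercised samples. All 7 exercised samples lay under the sedentary median, but the lowest array of all was sedentary 7. The difference was −0.51 (SE 0.43, 95% interval −1.42 to 0.40, adjusted p = 0.511).

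**Figure D2:**
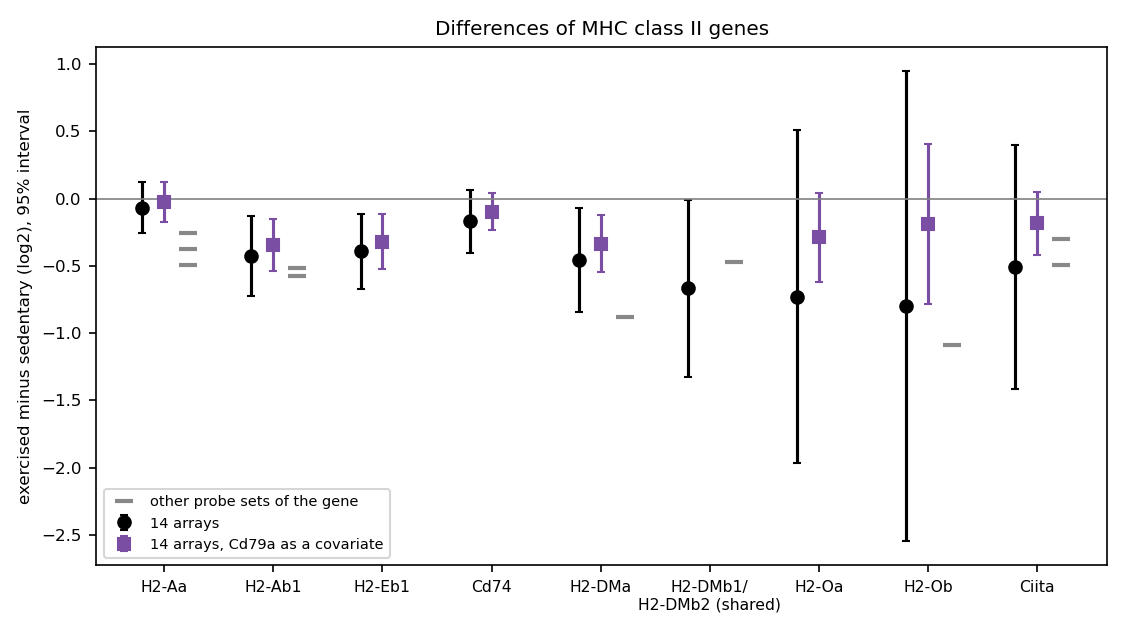
Exercised minus sedentary difference in log2(signal + 46.7) for each MHC class II gene, as points with 95% intervals from limma over 14 arrays, with the same difference with Cd79a as a covariate as squares and the genes' other probe sets as grey dashes. All points lie below 0, the shared probe set has no square, and the intervals of H2-Oa, H2-Ob and Ciita are the widest.

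The other probe sets of the members were read as a check. All 10 of them had a negative difference, and 0 of the 19 passed the test in the fit of all probe sets above the filter, beside 3.83% of all 27027 probe sets. At an unadjusted p under 0.05, 10 of 19 were lower, beside 10.2% of all. H2-Aa depended on the probe set. Its brightest probe set varied 1.53-fold over the arrays and differed by −0.068, whereas the others varied 2.43-fold to 3.62-fold and differed by −0.26 (SE 0.15), −0.38 (SE 0.25) and −0.50 (SE 0.17, adjusted p = 0.126). For H2-Ab1 the others differed by −0.58 (SE 0.18, adjusted p = 0.0849) and −0.51 (SE 0.17, adjusted p = 0.106), and for H2-DMa the second, dimmer probe set by −0.88 (SE 0.36, adjusted p = 0.190). The largest difference among the 19 was in the dimmer H2-Ob probe set, which also names Gm20506, at −1.09 (SE 0.49, adjusted p = 0.230). The other Ciita probe sets differed by −0.30 (SE 0.26) and −0.49 (SE 0.48).

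In the probe set read for each, the members split by how they followed the 3 arrays lowest in Cd79a. For 5 of them the 3 arrays lay under all other 11: H2-Ob at 270.3 to 818.5 against 3587.3 to 13045.1, H2-Oa at 257.3 to 418.8 against 1507.1 to 4470.8, Ciita at 454.4 to 711.2 against 1267.8 to 4287.9, the shared H2-DMb1 and H2-DMb2 probe set at 1332.1 to 2428.4 against 3200.9 to 8398.7, and H2-DMa at 2301.5 to 3074.6 against 3259.6 to 6994.4. For the other 4, H2-Aa, H2-Ab1, H2-Eb1 and Cd74, the 3 arrays overlapped the rest. The split depended on the probe set. In another H2-Aa probe set the 3 arrays lay at 2632.4 to 4703.6, under all other 11 at 5092.1 or more. In the other H2-DMa probe set, the other shared H2-DMb1 and H2-DMb2 one and the dimmest of Ciita, they overlapped the rest. In the remaining ones they overlapped for H2-Aa and H2-Ab1, and lay under the other 11 for H2-Ob and Ciita. How many of all genes split in this way was not counted, so the 5 of 9 cannot be read as particular to the members. Summed signals of the T cell list split likewise, at 4118.8 to 8233.2 on the 3 arrays against 18602.4 to 34820.6. Levels of different genes are not compared here, since each probe set has its own brightness.

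Because Cd79a separates these 3 arrays from the others, its relation to the members was measured within the remaining 11. Pearson's r with Cd79a was positive for all 9 and passed a permutation test, adjusted over 18 relations, for 6 of 9. At an unadjusted permutation p under 0.05 it was 8 of 9, beside 11.3% of all genes tested. The r was highest for Cd74 (r = 0.91, Spearman's rho = 0.88, permutation p = 0.00013, adjusted p = 0.00225) and Ciita (r = 0.88, rho = 0.80, permutation p = 0.00025, adjusted p = 0.00225). It was lower for H2-DMa (r = 0.77), H2-Oa (r = 0.76), the shared probe set (r = 0.73) and H2-Ab1 (r = 0.67), with adjusted permutation p of 0.0153, 0.0153, 0.0218 and 0.0363. H2-Ob (r = 0.63), H2-Eb1 (r = 0.61) and H2-Aa (r = 0.59) missed the threshold, with adjusted permutation p of 0.0525, 0.0566 and 0.0621. Without the 2 arrays farthest from the median of Cd79a (sedentary 5 and 6), r was 0.78 for Cd74 (exact permutation p = 0.0112) and 0.69 for Ciita (exact permutation p = 0.0411). For the other 7 it then ran from 0.29 to 0.51, each with an exact permutation p over 0.05, so the relations of H2-Ab1, H2-DMa, H2-Oa and the shared probe set to Cd79a rest on these 2 sedentary arrays.

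**Figure D3:**
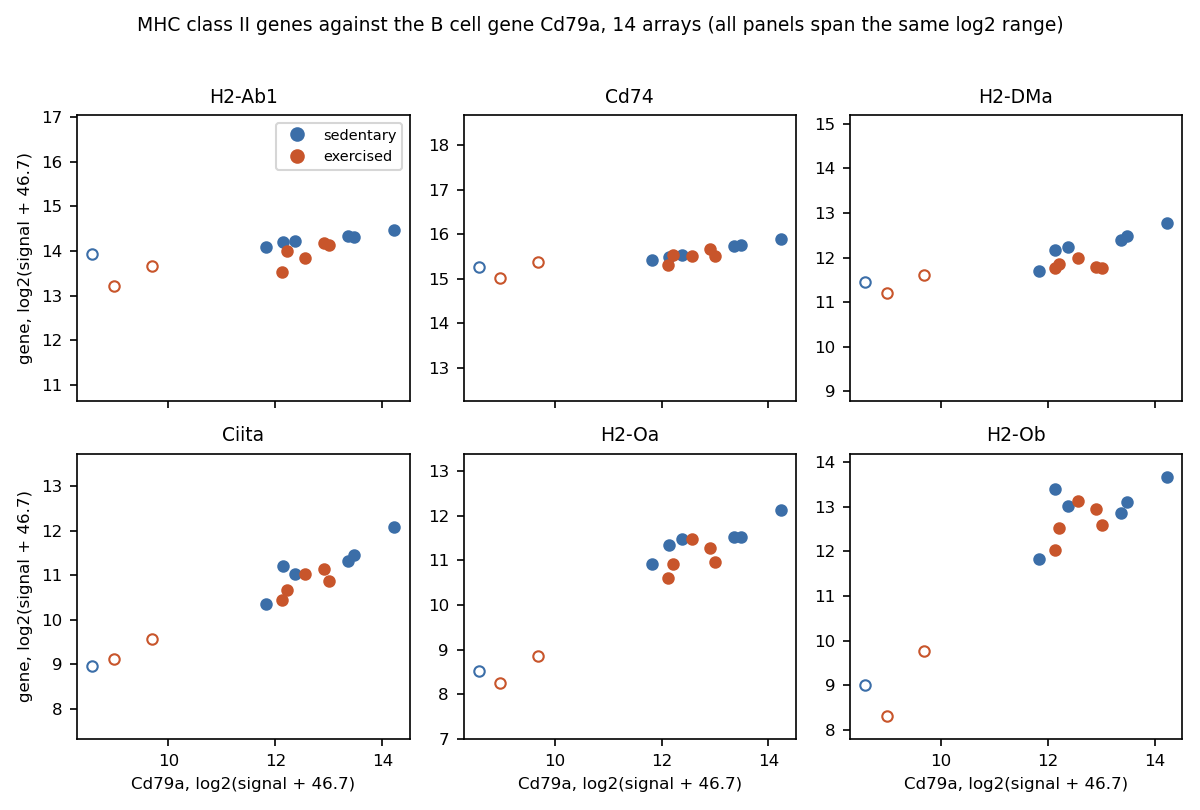
Level of 6 MHC class II genes against that of Cd79a per array, both as log2(signal + 46.7), with sedentary arrays in blue, exercised arrays in orange and the 3 arrays lowest in Cd79a open. For H2-Oa and H2-Ob the open points are signals of at most 418.8 and 818.5 and the filled ones of at least 1507.1 and 3587.3, while those of H2-Ab1 and Cd74 overlap.

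Cd68, a lysosomal protein used as a macrophage marker, was itself lower in all 7 exercised samples than the sedentary median, at 3535.87 ± 288.752 against 5811.51 ± 2681.36 (SD, n = 7 each). Its difference was −0.60 (SE 0.21, adjusted p = 0.107) and missed the threshold. Over the same 11 arrays, 6 of 9 members passed with Cd68, and 7 of 9 at an unadjusted permutation p under 0.05, beside 17.3% of all genes. The 6 were H2-DMa (r = 0.78), Ciita (r = 0.78) and the shared probe set (r = 0.76), each with an adjusted permutation p of 0.0153, and H2-Eb1 (r = 0.73), H2-Oa (r = 0.72) and H2-Ob (r = 0.72), with adjusted permutation p of 0.0235, 0.0199 and 0.0235. Without sedentary 4 and 5, the 2 arrays farthest from the median of Cd68, r was 0.84 for H2-DMa, 0.82 for H2-Eb1 and 0.80 for the shared probe set, with exact permutation p of 0.00527, 0.00951 and 0.00704. Cd74 then had r = 0.78 with Cd68 (0.61 over the 11 arrays, exact permutation p = 0.0112), the same as its r with Cd79a without the 2 arrays farthest in that gene, and Ciita had r = 0.67 (exact permutation p = 0.0435). For H2-Oa r was 0.66, little changed, with an exact permutation p of 0.0502. For H2-Ob r was 0.42 (exact permutation p = 0.252), so its relation to Cd68 rests on those 2 arrays. H2-Aa had the weakest relation to Cd68 (r = 0.32, adjusted permutation p = 0.350), measured in its brightest and least varying probe set only.

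The relations were also measured within each group. Among the 6 sedentary arrays outside the 3 lowest in Cd79a, 7 of 9 members passed with Cd79a and 0 of 9 with Cd68, by exact permutation tests adjusted over 18 relations. At an unadjusted p under 0.05 these were 7 of 9, beside 7.07% of all genes, and 1 of 9, beside 11.4%. Among the 7 exercised arrays 5 of 9 passed with Cd79a and 0 of 9 with Cd68, and at an unadjusted p 8 of 9, beside 11.6% of all genes, and 0 of 9, beside 2.26%. The exercised relation to Cd79a rests on exercised 5 and 7 for several members. Without them r went from 0.86 to −0.14 for H2-DMa, from 0.95 to 0.42 for the shared probe set, from 0.98 to 0.53 for H2-Oa and from 0.98 to 0.57 for H2-Ob, while it was 0.80 for Ciita and 0.79 for H2-Ab1. The 5 arrays left are too few for a test. With Cd68, r was positive for all 9 members in both sets, at 0.50 to 0.79 in the 6 sedentary and 0.15 to 0.74 in the exercised arrays. Among exercised arrays Cd68 ran only from 3176.7 to 3890.4, and Cd79a from 459.4 to 8188.7. Relations to Cd68 thus had little range to show in there, so the counts for both genes cannot be compared. The difference between the Cd79a and Cd68 relations was not tested.

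**Figure D4:**
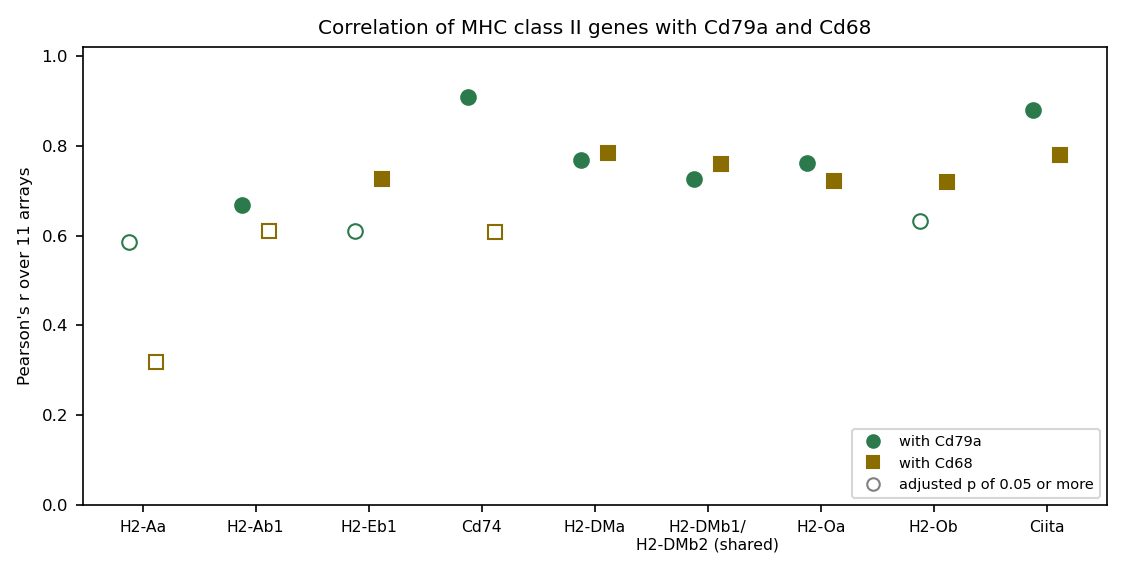
Pearson's r of each MHC class II gene with Cd79a and with Cd68 over the 11 arrays outside the 3 lowest in Cd79a, with filled points where the adjusted permutation p is under 0.05 and open points where it is not. Cd74 and Ciita have the highest r with Cd79a (0.91 and 0.88), and H2-Aa has the lowest r with Cd68 (0.32).

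The members also varied together from array to array. Over the 11 arrays, r between members ran from 0.51 to 0.96 with a median of 0.84, and 32 of 36 pairs passed a permutation test adjusted over the pairs. These 32 all had r of at least 0.62, which 6.69% of all pairs of tested genes reached. All 28 pairs without H2-Aa passed by Pearson's r, and 4 of 8 pairs with it. Without the 2 farthest arrays these 4 had r of −0.0022 (shared probe set), 0.17 (Cd74), 0.19 (H2-Ob) and 0.24 (Ciita). By Spearman's rho no pair with H2-Aa passed (smallest adjusted permutation p = 0.0867). H2-Ob with H2-Ab1 and with Cd74 also missed the threshold by rho (adjusted permutation p = 0.0989 and 0.185). H2-Aa was read here from its brightest probe set, which varied 1.53-fold over the arrays. Its other probe sets varied 2.43-fold to 3.62-fold, and their relations to the other members were not measured. The highest value joined H2-Eb1 and the shared H2-DMb1 and H2-DMb2 probe set (r = 0.96).

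When the Cd79a level entered the limma model as a covariate, 1 of 8 members passed, beside 2.49% of all genes called lower. H2-Ab1 fell, with a difference of −0.34 (SE 0.092, adjusted p = 0.0365), while H2-DMa (−0.34, SE 0.10, adjusted p = 0.0539) and H2-Eb1 (−0.32, SE 0.10, adjusted p = 0.0573) missed the threshold. The differences of the widely varying genes were smaller in this fit than without the covariate, at −0.29 (SE 0.16) for H2-Oa, −0.19 (SE 0.28) for H2-Ob and −0.18 (SE 0.11) for Ciita. With the mean level of the B cell list as the covariate H2-Ab1 also passed (−0.33, adjusted p = 0.0484), beside 2.22% of all genes called lower. With Cd68 as the covariate 0 of 8 members passed, also at an unadjusted p under 0.05, and H2-Ab1 differed by −0.30 (SE 0.17) and H2-DMa by −0.16.

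The ratio of 3′ to 5′ Gapdh control signal, a measure of RNA quality, had a median of 0.728 (0.694 to 0.796) in sedentary and 0.764 (0.710 to 0.788) in exercised samples. With this ratio as a covariate 0 of 8 members passed, 1 of 8 was lower at an unadjusted p under 0.05, beside 7.98% of all genes, and the members' median difference was −0.19 against −0.44 without it. H2-Ab1 differed by −0.35 (SE 0.15), H2-Eb1 by −0.29 (SE 0.14), H2-DMa by −0.34 (SE 0.20), H2-Oa by −0.25 (SE 0.59), H2-Ob by −0.13 (SE 0.84) and Ciita by −0.14 (SE 0.43). The part of RNA quality in the members' differences was not tested beyond this fit.

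The members that passed depended on single arrays. Without sedentary 7, H2-DMa (−0.58, adjusted p = 0.0439) and H2-Eb1 (−0.45, adjusted p = 0.0499) passed, 2 of 8 members beside 2.02% of all genes called lower, and H2-Ob differed by −1.37, H2-Oa by −1.15 and Ciita by −0.83. Without exercised 5 these were −0.25, −0.38 and −0.29. Without all 3 arrays lowest in Cd79a, 0 of 8 passed, beside 0.440% of all genes called lower. In that fit 4 of 8 had an unadjusted p under 0.05. The share of all genes at that p was not counted, and the 0.440% does not stand in for it. The differences were then −0.33 for H2-Ab1, −0.36 for H2-Eb1, −0.45 for H2-DMa, −0.44 for H2-Oa, −0.33 for H2-Ob and −0.41 for Ciita.

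Other genes of the pathway were counted from fixed lists, with 5.53% of all genes called as the background. At an unadjusted p under 0.05, 10.5% of all genes were lower and 11.3% higher, and 55.0% of all genes had a negative difference. Of 22 genes for class II loading, processing and transcription, 20 were tested, 0 passed, 16 were negative, and 7 were lower and 1 higher at an unadjusted p under 0.05, with a median of −0.23. The 2 with the smallest p were Slc11a1, a metal transporter of phagocyte vesicles (−0.41, SE 0.16, adjusted p = 0.144), and Nfyb, a subunit of nuclear factor Y (−0.30, SE 0.11, adjusted p = 0.144). Of 9 genes for co-stimulation, 7 were tested, 0 passed and 1 was lower at an unadjusted p under 0.05, with a median of −0.39, led by the checkpoint ligand Cd274 (−0.39, SE 0.15) and the T cell co-stimulator Cd86 (−0.41, SE 0.19). Interferon gamma is the classic inducer of Ciita, and of 10 genes of its signalling 8 were tested, 0 passed (0 at an unadjusted p under 0.05), and the median was −0.19, led by the receptor chain Ifngr1 (−0.16, SE 0.091) and the kinase Jak2 (−0.20, SE 0.13). The class I pathway, which shows peptides made inside the cell, had 15 of 18 genes tested, 0 passed, 3 lower at an unadjusted p under 0.05, 9 negative and a median of −0.080. The 9 of 15 negative lie near the 55.0% of all genes. Its leading genes were the chaperone Pdia3 (−0.29, SE 0.089, adjusted p = 0.0757) and the proteasome subunit Psmb9 (−0.37, SE 0.15, adjusted p = 0.160).

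Markers of the cells that carry class II mostly had lower means in exercised samples too, and their part in the members' differences was not tested beyond the covariate fits above. Of all genes tested, 1.53% were called lower, 10.5% were lower at an unadjusted p under 0.05, and 55.0% had a negative difference. All 13 tested B cell genes had a negative difference, 0 passed (0 at an unadjusted p under 0.05), and the median was −0.57, with Blk, a B cell kinase, at −0.54 (SE 0.42) and Pou2af1, a B cell coactivator, at −0.92 (SE 0.84). Summed B cell signals ran from 13599.5 to 136170 in sedentary and from 11042.4 to 72130.7 in exercised samples, with no marker at 0. All 14 macrophage genes were negative with a median of −0.34, 6 were lower at an unadjusted p under 0.05, and 1 passed: Tyrobp, a signalling adaptor of myeloid receptors, fell, with a difference of −0.52 (SE 0.15, adjusted p = 0.0482). Summed macrophage signals ran from 138407 to 230154 in sedentary and from 129127 to 173571 in exercised samples. Of 10 dendritic cell genes tested, 8 were negative, 0 passed and 3 were lower at an unadjusted p under 0.05, led by the chemokine Ccl17 (−0.43, SE 0.12, adjusted p = 0.0501) and the lectin Cd209a (−0.48, SE 0.15, adjusted p = 0.0766).

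For the remaining lists 0 genes passed, beside 5.53% of all genes. At an unadjusted p under 0.05, 10.5% of all genes were lower and 11.3% higher. The median was −0.50 over 12 T cell genes, led by Cd247 (−0.50) and Cd5 (−0.49), with 0 at an unadjusted p under 0.05. It was −0.73 over 4 plasma cell genes, led by Ighm (−0.71) and Mzb1 (−0.75), with 1 at that p, and −0.39 over 3 lymph node stroma genes, led by Madcam1 (−0.21) and Cxcl13 (−0.39), with 0. Over 8 adipocyte genes it was 0.14, led by the hormone Lep (−1.41, SE 0.48) and the lipase Pnpla2 (0.26, SE 0.092), with 3 higher and 1 lower at that p. Over 12 skeletal muscle genes it was 2.997, led by Myh1 (3.06, SE 1.23) and Atp2a1 (2.72, SE 1.13), with 9 higher at that p.

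The genes whose pattern over the 14 arrays was most like that of the members differed between groups of members. Closest to the mean of H2-Oa and H2-Ob were the B cell genes Cd79b (r = 0.998), Ms4a1 (r = 0.997), Bank1 (r = 0.993) and Cr2 (r = 0.992), and H2-DMb2 (r = 0.992). Closest to H2-DMa and the shared probe set were Cd40 (r = 0.98), a co-stimulatory receptor, Mical1 (r = 0.98), Lsp1 (r = 0.97), Napsa (r = 0.97) and Sh3bgrl3 (r = 0.97). Closest to the classical chains and Cd74 were Stk11ip, Rps18, Myh9, Lpcat1 and Fgd2, with r of 0.95 to 0.96. Among all non-member genes tested, Cd79a ranked 117, 349 and 767 for these patterns in turn, and Cd68 ranked 2828, 1911 and 1871. These values are descriptions across arrays that share the same 3 low arrays, and carry no test.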

How the data were processed

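Each of 14 samples (7 sedentary, 7 exercised) was hybridised to 1 array of 45101 probe sets. The authors deposited linear intensity values, and the submitters' processing notes name MAS5, with version and settings not given in the sources used here. Array medians were 531.3 to 617.4, the trimmed mean left out 2% at each end, and precision is limited by how many arrays there are.

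Of the probe sets, 34945 name 1 gene, 932 several and 9160 none, and 64 are controls. Symbols of 34741 were updated through the GRCm38.p6 gene table. Values were taken as log2(intensity + 46.7), the pseudocount being the 10th percentile. Probe sets with a mean under 389.7, the 40th percentile, were left out, 1 probe set was kept per gene by highest mean, and 12945 genes were tested with limma 3.58.1 (R 4.3.3, eBayes with a trend, Benjamini-Hochberg, two-sided, no covariates). The scripts were tested on simulated data. Relations used two-sided permutation tests with 100000 resamples, or exact enumeration under 10 arrays.

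Named genes are the members, Cd79a, Cd68, from each list the genes called or else the 2 with the smallest p, and the 5 closest in pattern to each of 3 groups of members. H2-Ea, H2-DMb2 on its own, Adipoq and any others were added after their values were seen. Members and lists were chosen with earlier results of these data known. Alternatives covered pseudocount, normalization, filter, variance model, array weights, RNA quality, probe set choice, cell content covariates, the replicate number as a block, and each array left out.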

Additional observations from a re-analysis of the deposited data

Results flagged for a closer look

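In 3 of 22 groups of 7 arrays examined (the members, Cd79a and Cd68 in each group), 1 array stood apart by Dixon's criterion, in which the gap to the nearest array, on the log2(signal + 46.7) scale, is divided by the group's range and compared with 0.568. Chance gives about 1 such case in 20 groups. The groups here are not independent, since H2-Oa and H2-Ob follow Cd79a over the 14 arrays (r = 0.97 and 0.95), so the 3 cases are not separate events. In all 3 it was sedentary 7 that lay lowest: the ratio was 0.663 for H2-Oa, 0.604 for H2-Ob and 0.575 for Cd79a, whose signal there was 335.2. On the linear scale its H2-Oa signal was 322 and the next 1896. The same array was the lowest sedentary one for Ciita, at 454.4.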

How the results depend on the processing

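The count of members called was 0 and was also 0 under all alternatives run but 3: it was 1 with Cd79a as a covariate and 1 with the B cell list as a covariate (H2-Ab1 in both), and ran from 0 to 2 with each array left out in turn, the 2 being without sedentary 7. Over 264 alternative values of the members' differences, 259 were negative. The 5 exceptions were H2-Aa at 0.012, H2-Ob at 0.072 and Ciita at 0.10 with Cd68 as a covariate, Ciita at 0.0074 with Cd79a and Cd68 together, and H2-Aa at 0.011 without sedentary 5 and 7 and exercised 5 and 7.

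Over all genes the count of 716 called became 161 with the replicate number as a block, 396 with the Gapdh 3′ to 5′ ratio as a covariate, 291 with Cd68, 230 with the muscle list, and 217 without the 3 arrays lowest in Cd79a, and ran from 402 to 853 with each array left out, from 402 to 477 without exercised 1, 3, 5, 6 or 7. Array median centring called 633 genes, 86 of them lower, against 198 of 716. Same-numbered arrays did not pair: their deviations from the group means correlated at −0.43 to 0.38, and 1 of 7 numbers matched best with itself; under the block 0 of 8 members passed.

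Over all 14 arrays 9 members were related to Cd79a and 6 to Cd68. The share of all genes related to either over these 14 arrays was not counted, so these counts have no background beside them. The Cd79a count ran from 6 to 9 with each array left out. The Cd68 count was 3 after quantile normalization, 2 after array median centring, 0 for deviations from the group means, and 0 to 6 with each array left out, the 0 being without sedentary 5 and counts of 2 or 3 without sedentary 1, 2, 4 or 6 or exercised 5, 6 or 7. None of the 360 correlations under the alternatives counted here changed sign, but several did in smaller subsets without their 2 farthest arrays. H2-DMa with Cd79a among exercised arrays went from 0.86 to −0.14 without exercised 5 and 7. H2-Ob with Cd79a among the 6 sedentary arrays went from 0.62 to −0.63 without sedentary 2 and 5. Without exercised 3 and 5, r with Cd68 in exercised arrays turned negative for H2-DMa, H2-Oa, H2-Ob, Ciita and the shared probe set (lowest −0.39). Without sedentary 1, 4, 5 and 6, r with Cd68 was negative for H2-Oa, H2-Ob and Ciita (lowest −0.22). The cause of these shifts was not tested.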

Other observations

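H2-DMb2 has 3 probe sets of its own, and in each of them the 3 arrays lowest in Cd79a lay under the other 11: 573.6 to 1303.6 against 4352.6 to 14394.8 in the brightest. Its difference there was −0.65 (SE 0.62, adjusted p = 0.566 over all genes, limma). This gene was singled out after its values were seen.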
